A study of Mus musculus with 4 samples.

Results

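The endoplasmic reticulum (ER) genes described here are 36 genes for protein folding in that compartment, for sensing unfolded protein, and for the disposal of misfolded protein. They were listed by function, and their probes were found by matching each probe's RefSeq transcript to a member. This gave 63 of the 41174 probes on the array, covering 34 of the 36 genes. Dnajb11 and Pdia3 were matched to no probe. Derl3, a derlin of the degradation machinery, was not well above background on any array, so 33 members entered the test across 15537 genes. Each of these 33 was well above background on all 4 arrays. They fall into 10 chaperones and co-chaperones, 9 disulfide isomerases and oxidases, 2 lectin chaperones, 4 sensors and transcription factors of the unfolded protein response, and 11 degradation genes, counted as listed.

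The cells were Hepa1c1c7, an established mouse hepatoma line. There were 2 samples per group: treated cells had 6 hours with diethyl maleate (DEM) at 100 µM, and control cells had dimethyl sulfoxide (DMSO) for as long. DEM is an electrophile that binds thiols and lowers glutathione, and the title of the series calls it an activator of NRF2, a transcription factor for antioxidant genes. The samples of a group are described as independent RNA, with no word on separate cultures, so the p-values measure a spread that may be technical; the labels name the cell line although their extraction text speaks of liver.

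Proteins that enter the ER fold with the help of the HSP70 chaperone BiP (Hspa5), of lectins that hold glycoproteins, and of isomerases that form and shuffle disulfide bonds. When unfolded protein builds up, the sensors IRE1 (Ern1), PERK (Eif2ak3) and ATF6 start the unfolded protein response (UPR): IRE1 splices the Xbp1 messenger, ATF6 is cleaved to a transcription factor, and PERK slows translation and favours ATF4. XBP1 and ATF6 then raise chaperone and degradation genes through the ER stress response element (ERSE) in their promoters. Misfolded protein is drawn back to the cytosol by the HRD1 complex and the ATPase VCP and is broken down there, which is called ER-associated degradation (ERAD).

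The ERSE letters, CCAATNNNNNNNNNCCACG on either strand, stood within 250 bases before the start of 10 of the 32 members that have a RefSeq promoter entry (36 windows, build GRCm38.p6). Over all 32851 windows of that length they stood in 37, or 0.113%. The shorter ERSE-II letters, ATTGGNCCACG, stood in 1 member window and in 10 of all windows (0.030%). The matches are shown because XBP1 and ATF6 act through these letters, and because the changes of the genes that carry them are given with the results. Each is turned to read as the motif, 5′ to 3′, with the fixed letters in capitals.
Calr: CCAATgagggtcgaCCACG
Canx: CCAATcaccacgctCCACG
Creld2: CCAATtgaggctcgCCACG
Derl3: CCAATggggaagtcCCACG
Dnajc3: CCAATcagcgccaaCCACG
Ero1lb: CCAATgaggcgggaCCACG
Hsp90b1: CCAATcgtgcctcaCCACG
Hsp90b1: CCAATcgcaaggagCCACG
Hspa5: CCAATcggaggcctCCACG
Pdia6: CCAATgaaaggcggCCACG
Syvn1: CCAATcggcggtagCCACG
Herpud1 (ERSE-II): ATTGGgCCACG

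Hsp90b1 holds a pair of matches, with 88 and 193 bases between the match and the gene start. The match of Syvn1 ends nearest to its start, at 25 bases, and that of Hspa5 lies 46 bases from it. To show the matches in place, the 250 bases before the start are given for BiP, the classic UPR target, at chr2:34771840-34772089 (+ strand), for Ero1lb, which had the largest measured change among the members, at chr13:12565633-12565882 (+ strand), and for Herpud1, the carrier of ERSE-II, at chr8:94386179-94386428 (+ strand). The capitals mark the ERSE or ERSE-II match on the strand of the gene, so the Ero1lb match reads in reverse.
Hspa5 promoter: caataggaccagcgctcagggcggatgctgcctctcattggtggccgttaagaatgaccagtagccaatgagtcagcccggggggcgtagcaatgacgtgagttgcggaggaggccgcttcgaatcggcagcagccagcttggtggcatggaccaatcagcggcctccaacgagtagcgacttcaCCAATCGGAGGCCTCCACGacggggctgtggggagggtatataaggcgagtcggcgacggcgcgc
Ero1lb promoter: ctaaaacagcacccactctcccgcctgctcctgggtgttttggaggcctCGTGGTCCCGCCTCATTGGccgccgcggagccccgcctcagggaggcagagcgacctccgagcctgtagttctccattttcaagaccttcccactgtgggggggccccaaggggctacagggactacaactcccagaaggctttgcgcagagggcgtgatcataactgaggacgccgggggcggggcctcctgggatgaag
Herpud1 promoter: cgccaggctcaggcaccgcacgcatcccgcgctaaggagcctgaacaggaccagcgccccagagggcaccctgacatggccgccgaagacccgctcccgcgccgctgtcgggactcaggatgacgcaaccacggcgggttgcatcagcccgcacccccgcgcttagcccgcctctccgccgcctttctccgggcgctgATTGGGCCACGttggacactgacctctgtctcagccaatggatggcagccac

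The treatment registered in these samples. All 7 NRF2 targets looked at (Nqo1, Hmox1, Gclc, Gclm, Txnrd1, Srxn1 and Slc7a11) rose, with log2 changes between 0.81 and 5.15 and a median of 2.30. Over all genes 111 of 15537 (0.714%) were higher and 79 (0.508%) lower in DEM at a limma adjusted p under 0.05. Between 50.4% and 52.6% of probes were well above background on each array and 0 spots were saturated. Of the 9 hepatocyte markers 8 had a probe and 4 were well above background on some array: Afp, Alb and Trf on all, Apob on part of them, and Apoa1, Fgb, Hnf4a and Ttr on none. Their summed signal was 63300 to 70300 in DMSO and 79500 to 79700 in DEM. Most of it was Afp (58010 and 53670 in DMSO, 67350 and 69020 in DEM). Alb and Trf overlapped between the groups, and the dim Apob was higher in DEM. The summed signal of the 4 cholangiocyte markers with a probe was 83000 to 90300 in DMSO and 68400 to 80600 in DEM. That of the 5 fibroblast markers was 46600 to 51600 and 41300 to 48500, most of it Col1a1. Col1a1 and Acta2 overlapped between the groups, Col3a1 was lower on both DEM arrays and Pdgfrb higher. Of the macrophage markers 4 of 5 had a probe and 3 were well above background on some array (2780 to 3060 and 2480 to 3180), and of 4 endothelial markers 1 was (68.4 to 73.8 and 63 to 66.3). Pecam1, Cdh5, Kdr, Adgre1 and Epcam were not well above background on any array. Krt7, Krt19, Sox9, Csf1r, Cd14 and Lyve1 were so on all 4 arrays. Krt7 had signals of 81290 and 88640 in DMSO and 67370 and 79400 in DEM. The part of these shifts in the results below was not tested.

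Of the 33 members tested, 0 were called higher and 0 lower (limma, Benjamini-Hochberg over all genes), with adjusted p-values from 0.112 to 0.936. Over all genes 0.714% and 0.508% were called. The smallest log2 change called in any gene was 0.73 in size, above the largest of the members (0.69). A count of 0 thus says little about changes of the members' size. The members' changes were small and mostly upward. The median log2 change was 0.13 against −0.01 over all genes tested, and 28 of 33 members lay above 0, as 48.8% of all genes did. For 22 of 33 (66.7%) both DEM arrays lay above both DMSO arrays, against 24.9% of all genes, and for 4 of 33 (12.1%) both lay below, against 25.6%. At an unadjusted p under 0.05, 7 members were higher and 0 lower, against 9.02% and 10.2% of all genes. No member changed 2-fold, against 2.44% of all genes that did. For 32 of 33 members the 95% interval of the log2 change lay within −1 to 1, the exception being Ero1lb. The same held for 88.9% of all genes. These intervals are not adjusted for the number of genes. The level of 0 depends on the scaling: subtracting each array's median moved the median of all genes to 0.14 and scaling on spike-in probes moved it to −0.08, and 31 and 25 members then lay above 0. These scalings shift every gene alike, so the members' median stays 0.14 above that of all genes by construction.

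The count of 7 members higher at an unadjusted p under 0.05 was 14 under median scaling and 1 under spike-in scaling. Over all 15537 genes, 2195 and 487 were then higher at this threshold, against 1401 with the scaling used. Among the calls over all genes, 58.4% were higher in DEM, against 71.3% under median scaling and 34.6% under spike-in scaling. With 1 array left out a group holds 1 sample, so genes that pass are not counted there and only changes are given. The members' median log2 change then ran from 0.11 (without DMSO replicate 2) to 0.18 (without DEM replicate 2).

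**Figure D1:**
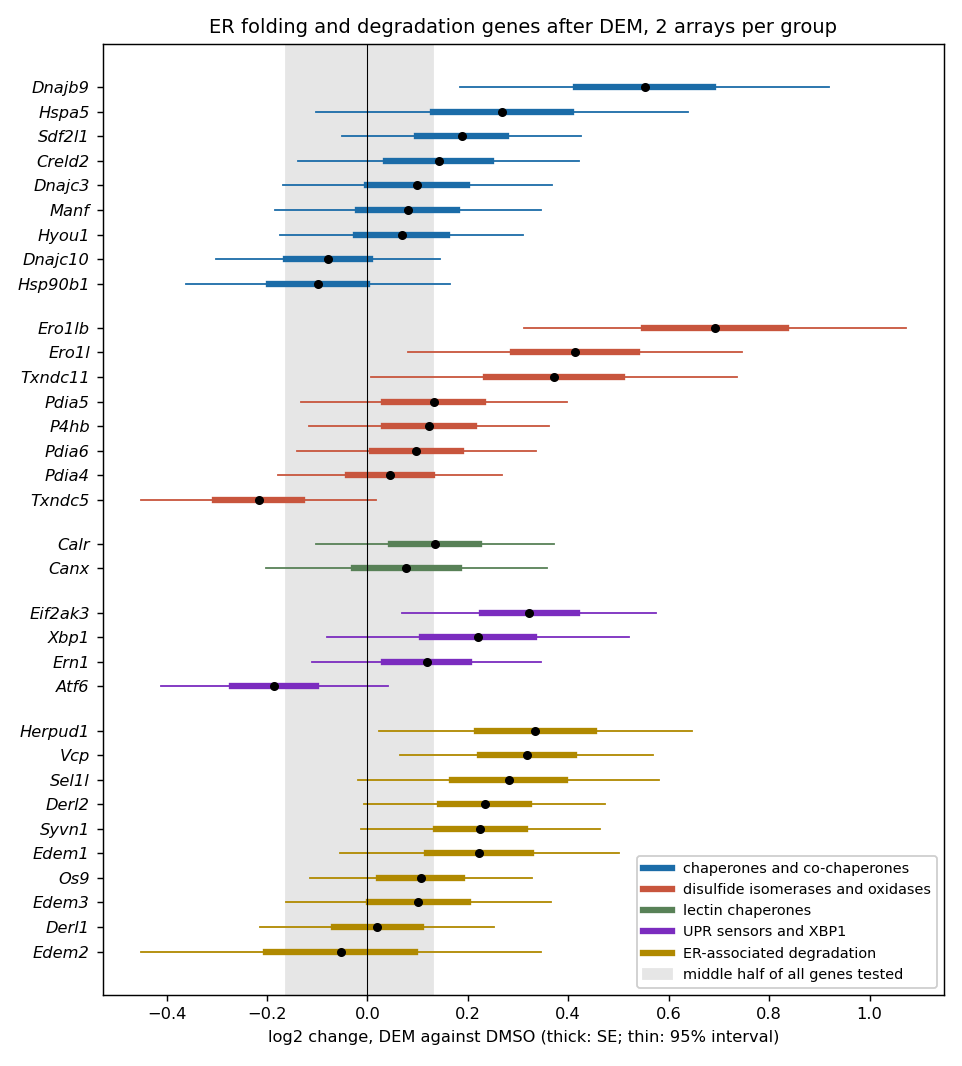
Log2 change of each tested member in DEM against DMSO on the horizontal axis, by functional group, with the SE as a thick bar and the 95% interval as a thin bar (limma, 2 arrays per group). Grey marks the range between the quartiles of all 15537 genes, from −0.16 to 0.13; Ero1lb (0.69) and Dnajb9 (0.55) lie farthest to the right and Txndc5 (−0.22) farthest to the left.

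Among the chaperones and co-chaperones, 9 were tested, 0 were called, and the median log2 change was 0.10, with 7 above 0 and 2 below. Leaving out DEM replicate 1 brought this group's median to 0.06, and leaving out DEM replicate 2 brought it to 0.18. Signals below are processed intensities scaled to a common 75th percentile, in arbitrary units. Hspa5, which encodes BiP, the main HSP70 of the ER lumen, had signals of 23710 and 29750 in DMSO and 31850 and 32120 in DEM. Both DEM arrays were above both DMSO arrays, but the DMSO arrays differed from each other by more than the DEM mean differed from the higher of them. It differed by 0.27 ± 0.14 on the log2 scale (SE, n = 2 arrays per group; limma adjusted p = 0.385), and it ran from 0.10 without DMSO replicate 1 to 0.43 without DMSO replicate 2.

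Hsp90b1 encodes GRP94, the HSP90 of the ER. Its signals were 14840 and 16530 in DMSO and 14520 and 14760 in DEM. The DEM arrays were slightly below the DMSO arrays (log2 difference, DEM minus DMSO, −0.10 ± 0.10; limma adjusted p = 0.656), and the sign turned to 0.05 under median scaling and to 0.01 with the other probe. GRP94 and BiP transcripts, which a UPR is known to raise together, thus had 95% intervals of −0.36 to 0.16 and −0.10 to 0.64.

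Dnajb9, a J-domain co-chaperone of BiP that is induced by XBP1 and restrains IRE1, had the largest change of this group. Its signals were 200.2 and 192.2 in DMSO and 257.5 and 321.2 in DEM. The DMSO arrays were close together and both DEM arrays lay above them, at unequal heights. On the log2 scale this was 0.55 ± 0.14, or 1.47-fold (limma adjusted p = 0.150), with 0.39 when DEM replicate 2 was left out and 0.71 when DEM replicate 1 was. All 3 probes of the gene had non-overlapping groups, the others with log2 changes of 0.51 and 0.43.

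The other members of the group moved less. Sdf2l1, part of a BiP co-chaperone complex, had a log2 change of 0.19, and Creld2, an ER-resident protein induced by ER stress, of 0.14. Both had DEM arrays above both DMSO arrays. Dnajc3 (P58IPK, a J-domain co-chaperone), Manf (a secreted ER stress protein that binds BiP) and Hyou1 (an HSP110-type exchange factor for BiP) had 0.10, 0.08 and 0.07, with overlapping groups. Dnajc10, which joins a J domain to thioredoxin domains and reduces disulfides for degradation, had −0.08 with the DEM arrays below; 1 of its 4 probes gave 0.11. Median scaling turned Dnajc10 positive, and spike-in scaling turned Hyou1 negative.

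Of 8 disulfide enzymes tested, 0 were called and 3 were higher at an unadjusted p under 0.05, against 9.02% of all genes. The groups did not overlap for any of the 8, with 7 above and 1 below, against 24.9% and 25.6% of all genes. The median log2 change was 0.13, from −0.22 (Txndc5) to 0.69 (Ero1lb).

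Ero1lb (ERO1-beta) is a flavoprotein oxidase that passes electrons from protein disulfide isomerase to oxygen, which yields hydrogen peroxide. Its signals were 44.83 and 38.43 in DMSO and 73.37 and 61.33 in DEM, with both DEM arrays well clear of DMSO. This gave a log2 change of 0.69 ± 0.14, or 1.62-fold, with a 95% interval of 0.31 to 1.07 (limma adjusted p = 0.112). Under median scaling it was 0.84 and passed the threshold (limma adjusted p = 0.0322), the 1 member that passed in any setting tried; after normexp, whose offset shrinks changes of dim probes by construction, it was 0.25. The other probe gave 0.60, with signals of 18.03 and 15.70 in DMSO and 31.46 and 20.68 in DEM.

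Ero1l (ERO1-alpha), the oxidase that is also known to respond to hypoxia, had signals of 1146 and 956.7 in DMSO and 1355 and 1435 in DEM. The DEM arrays were both higher, and the log2 change was 0.41 ± 0.12, or 1.33-fold (limma adjusted p = 0.194), with 0.28 when DMSO replicate 2 was left out and 0.54 when DMSO replicate 1 was. Its other probe gave 0.55. Thus 4 of 4 probes for the pair of oxidases had DEM arrays above DMSO arrays, as 24.9% of all genes did. These probes read the same 4 samples and are not replicates.

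Txndc11, a transmembrane protein with thioredoxin domains, had signals of 3556 and 2851 in DMSO and 4124 and 4115 in DEM. Its log2 change of 0.37 ± 0.14 (limma adjusted p = 0.254) became 0.21 when DMSO replicate 2 was left out and 0.53 when DMSO replicate 1 was. The other probe gave −0.06 with overlapping groups, the largest gap between probes of 1 member (0.43), so the direction depends on the probe.

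The thioredoxin-fold isomerases P4hb, Pdia5, Pdia6 and Pdia4, which catalyse disulfide formation and exchange, had log2 changes of 0.12, 0.13, 0.10 and 0.04. Their 95% intervals lay between −0.18 and 0.40, and Pdia4 turned negative under spike-in scaling. Txndc5 (ERp46), an isomerase with several thioredoxin domains, was the lowest member of all 33. Its signals were 4991 and 5186 in DMSO and 4482 and 4276 in DEM, with both DEM arrays below. The log2 change was −0.22 ± 0.09 (limma adjusted p = 0.286), and the other probe gave −0.24.

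**Figure D2:**
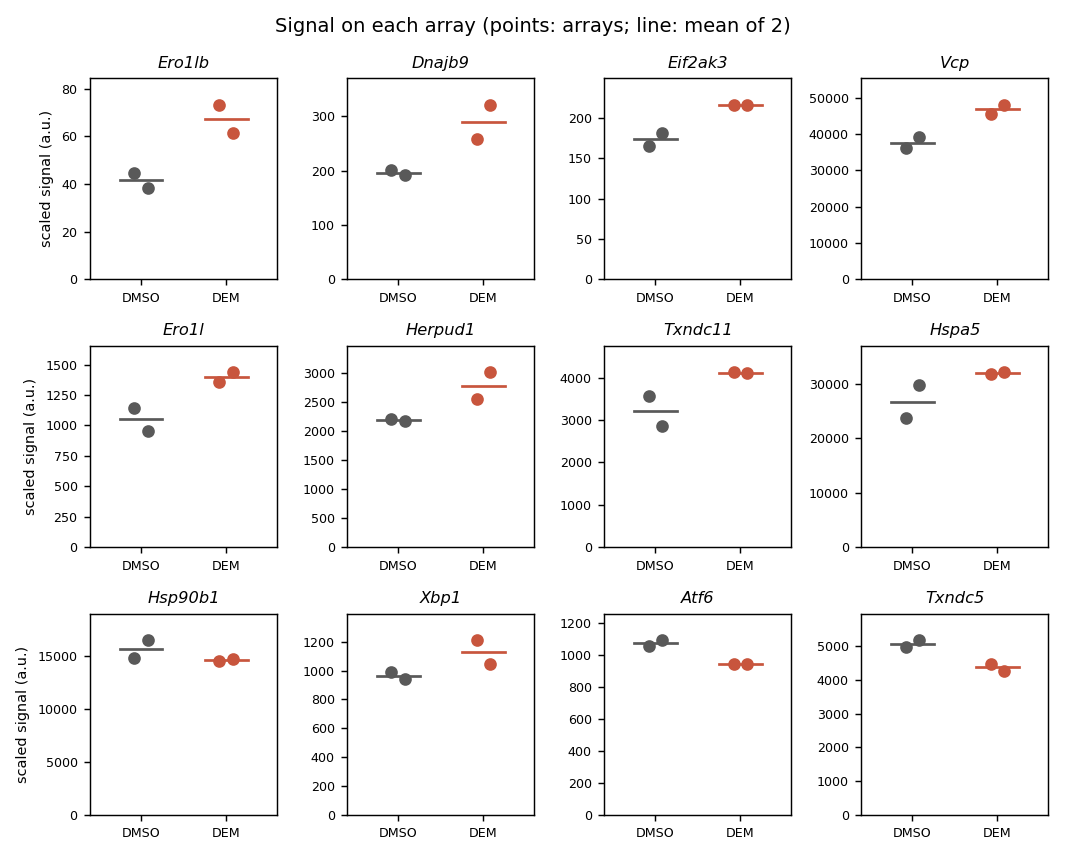
Scaled signal in arbitrary units, on axes that start at 0, of the 7 members at an unadjusted p under 0.05 and of Hspa5, Hsp90b1, Xbp1, Atf6 and Txndc5. Each point is 1 array and each line the mean of 2; the DEM points of Ero1lb (73.37 and 61.33) stand clear of its DMSO points (44.83 and 38.43), while those of Hsp90b1 and Hspa5 lie near the nearest DMSO array.

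The lectin chaperones calreticulin and calnexin bind monoglucosylated glycoproteins and hold them for folding. Calr had signals of 10160 and 9773 in DMSO and 10650 and 11240 in DEM, and Canx 25500 and 24790 in DMSO and 24880 and 28310 in DEM. Calr had higher values on both DEM arrays and Canx overlapped. The log2 changes were 0.13 ± 0.09 and 0.08 ± 0.10 (limma adjusted p = 0.489 and 0.751), and Canx had the opposite sign (−0.02) with DEM replicate 2 left out. The group's median of 0.11 became 0.04 in that case and 0.17 with DEM replicate 1 left out.

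Of the 4 sensors and transcription factors 0 were called, and 3 lay above 0 and 1 below. Eif2ak3, the PERK gene, had signals of 165.4 and 181.8 in DMSO and 216.8 on each DEM array. The log2 change was 0.32 ± 0.09, or 1.25-fold (limma adjusted p = 0.189), and leaving out a DMSO array gave 0.25 or 0.39. Atf6 lay the other way. Its signals were 1056 and 1095 in DMSO and 943.8 and 947.5 in DEM, which is −0.19 ± 0.08 on the log2 scale (limma adjusted p = 0.329). Both probes of Atf6 had DEM arrays below DMSO arrays, the other with −0.15. Whether the changes of Eif2ak3 and Atf6 differ from each other was not tested.

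Ern1, the IRE1-alpha gene, had signals of 209.2 and 200.4 in DMSO and 220.7 and 223.8 in DEM, a log2 change of 0.12 ± 0.08 (limma adjusted p = 0.529). Xbp1, the target of IRE1 splicing and itself a UPR-induced gene, had signals of 988.2 and 941.2 in DMSO and 1210 and 1044 in DEM. Both genes were higher on each DEM array than on each DMSO array. The log2 change of Xbp1 was 0.22 ± 0.11 (limma adjusted p = 0.378), with 0.11 when DEM replicate 1 was left out and 0.33 when DEM replicate 2 was. Its probe reads the level of the transcript; splicing by IRE1, cleavage of ATF6 and phosphorylation of PERK were not measured.

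Degradation genes had a median log2 change of 0.22 over 10 tested, with 9 above 0 and 0 called. At an unadjusted p under 0.05, 2 were higher, against 9.02% of all genes. Both DEM arrays were above both DMSO arrays for 7, against 24.9% of all genes, and the groups overlapped for 3. The group median was 0.13 when the probes of a gene were averaged. Whether this group differs from the others was not tested.

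Herpud1, a ubiquitin-like ER membrane protein of the HRD1 complex and a textbook UPR target, had signals of 2212 and 2180 in DMSO and 2546 and 3011 in DEM. The DEM arrays were higher and farther apart than the DMSO arrays. Its log2 change was 0.33 ± 0.12, or 1.26-fold (limma adjusted p = 0.236), and 0.21 without DEM replicate 2. Vcp, the AAA ATPase that pulls substrates out of the membrane, had signals of 36160 and 39050 in DMSO and 45590 and 48080 in DEM. The log2 change was 0.32 ± 0.09 (limma adjusted p = 0.193), its other probe gave 0.30, and both probes separated the groups.

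Of the HRD1 ligase and its partners 0 were called. Syvn1, the ubiquitin ligase HRD1, had a log2 change of 0.22, and Sel1l, its adaptor, 0.28. Derl2, a derlin of the same complex, had 0.23, with 0.31 from its other probe. For these 3 genes the groups of the probe used did not overlap, although the other probe of Sel1l gave 0.02 and that of Syvn1, 0.33, overlapped. Derl1 was near 0 (0.02, with 4 probes between 0.01 and 0.13), and spike-in scaling turned it negative. Os9, a lectin that delivers glycoproteins to the complex, had 0.11, and −0.11 from its other probe.

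The EDEM proteins trim mannose from misfolded glycoproteins. Edem1 had a log2 change of 0.22, with 0.13 and −0.01 from its other probes, and Edem3 had 0.10 with overlapping groups. Edem2 was the lowest of the degradation genes. Its signals were 1056 and 951.5 in DMSO and 1084 and 861.2 in DEM, so the groups overlapped, and the log2 change was −0.05 ± 0.15 (limma adjusted p = 0.890). It turned to 0.09 under median scaling, 0.02 without DMSO replicate 1 and 0.11 without DEM replicate 2.

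**Figure D3:**
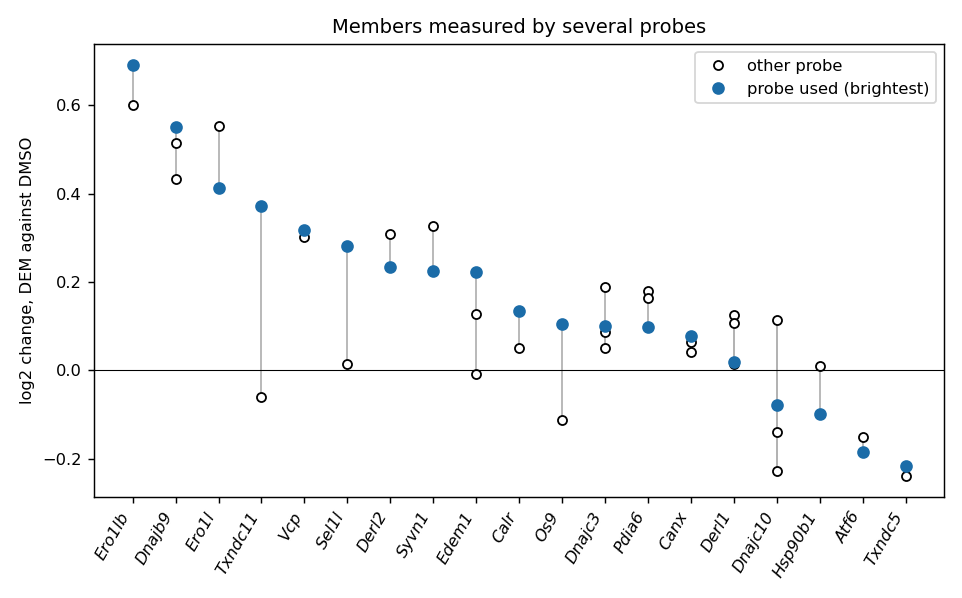
Log2 change in DEM against DMSO of every tested probe, for the 19 members with more than 1; filled points are the brightest probe, which stands for the gene, and open points the others. The probes of Ero1lb, Dnajb9, Ero1l and Vcp lie above 0 and those of Atf6 and Txndc5 below, while Dnajc10, Edem1, Hsp90b1, Os9 and Txndc11 have probes on both sides.

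With every probe tested on its own, 62 of the 63 member probes were well above background and 0 were called, against 214 of 21140 over the array. Of these 62, 50 lay above 0 and 12 below, with a median of 0.12. In 14 of the 19 members with several probes all probes had the same sign, and in 5 they differed. The median range between probes of a gene was 0.11, close to the typical standard error of 0.11 for a single gene. Probes of 1 gene share a target transcript and are not replicates of the treatment.

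The 9 tested carriers of the ERSE letters had a median log2 change of 0.135, from −0.10 (Hsp90b1) to 0.69 (Ero1lb), and the 20 tested members whose windows lack the letters had a median of 0.20. Dnajb9 (0.55) and Ero1l (0.41) were among those without a match. Herpud1, the ERSE-II carrier, had 0.33. These values are descriptions without a test, and the absence of a match says only that the letters are not in the window. The antioxidant response element core, TGACNNNGC, through which NRF2 acts, stood in 7 of 36 member windows (Calr, Ern1, Herpud1, Pdia3, Txndc11, Txndc5 and Vcp), against 3338 of all 32851 windows (10.2%). The 6 of these that were tested ran from −0.22 to 0.37. The core of the UPR element, TGACGTG, stood in windows of Hspa5, Txndc11, Txndc5 and Vcp, and in 1.65% of all windows; in Txndc5 and Vcp its match overlaps that of TGACNNNGC. The CHOP-ATF4 core, TGATGNAA, stood in windows of Herpud1 and Txndc5 and in 3.45% of all windows. All motifs were searched on both strands.

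Other genes of the pathway were read from lists of the steps before and after folding. Of 17 translocation and signal peptidase genes, which bring proteins into the ER, 0 were called and 0 passed an unadjusted p of 0.05 in either direction; the median log2 change was 0.01, and Sec63, a J-domain partner of the translocon, had the largest at 0.13. Of 11 genes that attach and trim N-glycans 0 were called and 0 passed unadjusted, with a median of 0.03 and Dad1, an oligosaccharyltransferase subunit, at 0.22. Of 13 further folding factors 0 were called and 1 was higher unadjusted, with a median of 0.05. Over all genes 9.02% were higher and 10.2% lower at that threshold. The 1 folding factor that passed was Sil1, a nucleotide exchange factor for BiP, at 0.35 ± 0.11 (limma adjusted p = 0.201).

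Of 20 further degradation genes tested 0 were called, and the median was 0.13. Before adjustment 4 passed 0.05, all of them higher, against 9.02% of all genes. Ubxn4, an ER protein that recruits VCP, had the largest change, 0.53 ± 0.09 (limma adjusted p = 0.0826). The other 3, named after their values were seen, were Ngly1, which strips glycans from retrotranslocated protein (0.52), Nploc4, a cofactor of VCP (0.31), and Herpud2 (0.30). Vcp, Ubxn4 and Nploc4 had DEM arrays above DMSO arrays, whereas Ufd1l, which pairs with Nploc4, and Ubxn6 had −0.04 and −0.02. Faf2 (0.16) and Vimp (0.20) also had DEM arrays above DMSO arrays. Over this list that held for 12 of 20 tested, and 8 overlapped, against 24.9% of all genes with DEM arrays above.

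Of 12 further UPR transducers and outputs tested 0 were called, and the median was 0.225. At an unadjusted p under 0.05, 3 were higher and 1 lower, against 9.02% and 10.2% of all genes. Trib3, a pseudokinase induced by ATF4 and CHOP, had 1.06 ± 0.17 (limma adjusted p = 0.0797). Atf3, a stress-induced transcription factor, had signals of 520 and 513.5 in DMSO and 629.2 and 1696 in DEM, so that its log2 change of 1.00 ± 0.49 (limma adjusted p = 0.365) rested on DEM replicate 2 and was 0.28 without it. Chac1, which degrades glutathione, had 0.81 ± 0.12 (limma adjusted p = 0.0704), and Ppp1r15a, the GADD34 phosphatase subunit that reverses PERK signalling, had 0.50 ± 0.10 (limma adjusted p = 0.107). Atf4 had 0.29, Ddit3, the CHOP gene, 0.44, and Creb3l2, an ATF6-like factor, −0.40. Without DEM replicate 2, Trib3, Chac1, Ppp1r15a, Atf4, Ddit3 and Creb3l2 had 0.84, 0.69, 0.47, 0.17, 0.26 and −0.29. Ppp1r15b, Mbtps1, Creb3, Atf6b and Wfs1 had 0.16, 0.05, 0.01, 0.0013 and −0.03. Apart from Trib3, the genes given in detail were picked after their values were seen. In comparison, the 14 tested members that textbooks list as UPR targets had a median of 0.165, with 0 called. Of these, 2 were higher (Dnajb9 and Herpud1) and 0 lower unadjusted, against the same 9.02% and 10.2% of all genes. ATF4 is also raised by other stresses than that of the ER, and the arms of the UPR were not separated by these data.

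**Figure D4:**
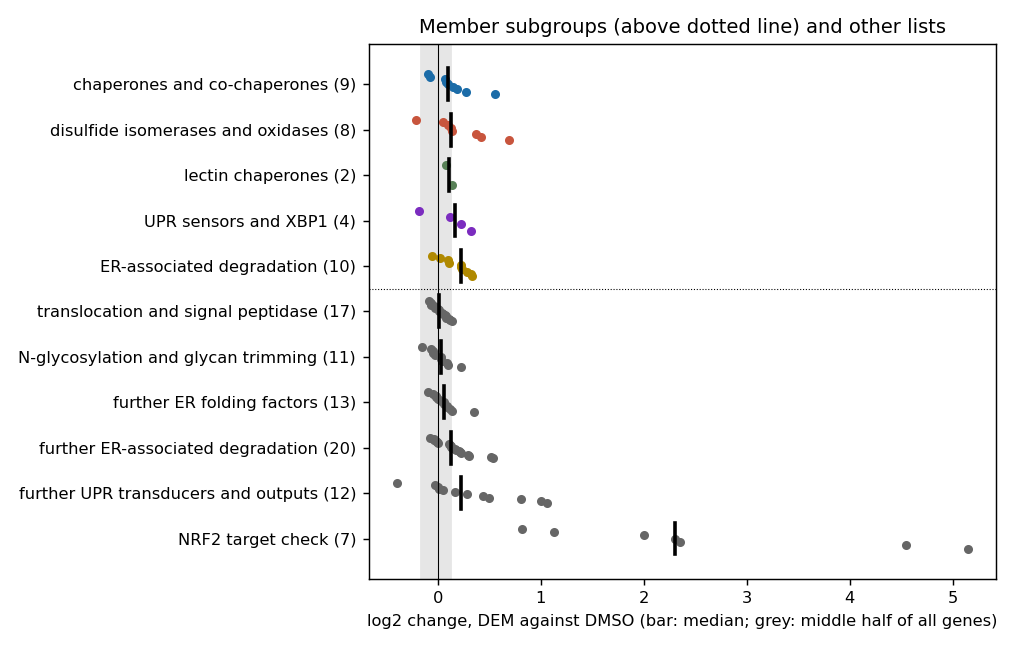
Log2 change in DEM against DMSO of every tested gene, by list, with the number tested in brackets, the list median as a bar and the range between the quartiles of all genes in grey. The member groups have medians from 0.10 to 0.22 and the 7 NRF2 targets one of 2.30.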

How the data were processed

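Messenger RNA was measured on 4 one-colour (Cy3) Agilent arrays, 2 for DEM and 2 for DMSO, all on 1 slide with 1 scan time, so neither could be tested as a batch. Per the file headers, the deposited processed signal is a linear intensity from Agilent Feature Extraction 10.7.3.1 after its background subtraction. The deposited flags (outlier, saturated, well above background) are other values of the same software. From it, log2 was taken and each array's 75th percentile over 43379 non-control spots subtracted, outlier spots were dropped and the spots of a probe averaged. Printed signals are these values on the linear scale. Of the 41174 probes 26682 received 1 symbol through RefSeq (GRCm38.p6), and 22 had no unflagged spot on an array and were left out. Probes well above background on at least 2 arrays were tested, with the brightest probe per gene (and the name in the files where there was no symbol), using limma 3.58.1 (R 4.3.3; lmFit, then eBayes), with p-values adjusted by Benjamini-Hochberg over 15537 genes and a threshold of 0.05. The fit was tested on 20 data sets made from these arrays' means and spread for the comparison of DEM with DMSO with 15537 genes, where it recovered 42.8% of 2-fold and 89.1% of 4-fold changes.

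The members, lists and motifs were chosen with earlier results of these data known. Full values are given for members at an unadjusted p under 0.05, the highest and lowest of each group, Hspa5, Hsp90b1, Xbp1 and the sensors. In the other lists the rule was called genes or the largest change, and further genes were named after their values were seen. Alternatives were normexp, quantile, median and spike-in scaling, the deposited value table of the same intensity, other filters, other probe rules, an intensity trend, leaving out each array in turn, and the replicate block. For normexp the spot medians were taken in place of the planned spot means, which were not used here. The number of arrays limits the precision.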

Additional observations from a re-analysis of the deposited data

How the results depend on the processing

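The 16 members with full values kept their sign and were not called in 228 of 236 recomputed values. The exceptions were Ero1lb, called under median scaling (0.84), and 7 changes of sign. These were Hsp90b1 (0.047 under median scaling, 0.0096 with its other probe), Txndc11 (−0.061 with its other probe), Canx (−0.015 without DEM replicate 2) and Edem2 (0.092 under median scaling, 0.022 without DMSO replicate 1 and 0.11 without DEM replicate 2, with −0.219 to 0.113 over the 4 arrays left out). Member genes called were 0 except for 1 under median scaling, as were member probes called. The smallest limma adjusted p of a member was 0.0524 with an intensity trend, 0.0587 under normexp and 0.0601 with the replicate block. Members higher at an unadjusted p under 0.05 (7) were 14 under normexp and under median scaling, 1 under spike-in scaling and 11 with an intensity trend. Under normexp, quantile normalization and the trend 1 member was lower, as were 1896, 1468 and 1558 of all genes. In the main fit 0 members and 1587 of all genes were lower. Over all genes, 1401 were higher at an unadjusted p under 0.05. That count was 1671 under normexp, 2195 under median scaling, 487 under spike-in scaling and 1644 with an intensity trend. Members with both DEM arrays above were 9 under spike-in scaling, against 22. That scaling lowered the median of all genes to −0.08, and the share of all genes with DEM arrays above was not counted under it.

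The members' median (0.13) was 0.28 under median scaling, 0.058 under spike-in scaling and 0.11 to 0.18 without an array; relative to all genes (0.14) it was 0.11 with no filter on dim probes and 0.13 to 0.19 without an array. Under normexp, median and spike-in scaling, the medians were 0.17, 0.24 and 0.025 for chaperones, 0.22, 0.25 and 0.032 for lectins, 0.070, 0.31 and 0.095 for sensors and 0.15, 0.37 and 0.15 for degradation; disulfide enzymes gave 0.27 and 0.053 under the last 2. Degradation gave 0.19 after quantile normalization, 0.13 with the mean of a gene's probes and 0.13 with every probe, which gave 0.12 for sensors. Without an array the ranges were 0.063 to 0.18 (chaperones), 0.097 to 0.18 (disulfide enzymes), 0.12 to 0.22 (sensors) and 0.18 to 0.21 (degradation). Genes called over all (190) were 807 under normexp, 93 after quantile normalization, 567 under median and 572 under spike-in scaling, 0 with no filter, 426 with the filter on all 4 arrays, 726 with the trend and 0 to 121 without an array. Called genes of the other lists were 6 under normexp, 2 under median or spike-in scaling or the strict filter and 5 with the trend. The cause of these shifts was not tested, except that spike-in and median scaling move all genes together by construction.

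The labels share replicate numbers but state no pairing. With the replicate block 11 members, and 1961 of all genes, were higher at an unadjusted p under 0.05. It called 143 genes in all, 0 of them members. Across genes, the differences between replicates 1 and 2 correlated at r = 0.138 between the groups. The slide could not be used as a block, since there was 1.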
